A study of Homo sapiens with 45 samples.

Results

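The 3 arrays labelled untransfected SKOV3 were compared with the 3 labelled untransfected HEY, which were chosen by their titles and make up 6 of the 45 arrays of the series. The series covers 3 established human lines, HEY and SKOV3 (ovarian cancer) and PC3 (prostate cancer). Each was left untransfected or given a miRNA precursor at 33 nM for 48 h, namely miR-429, miR-205, miR-203a or the negative control miR-NC, and every group has 3 arrays. Both groups described here were cultured in the same medium and received no oligonucleotide. Total RNA was amplified with a 3′ kit, labelled with biotin and read on expression arrays, and all values are RMA intensities on a log2 scale. The labels do not say that the 3 arrays of a group came from separate cultures, so every p-value below measures only the spread between arrays. That spread was pooled over all 15 groups of the series, except where only the 6 arrays were fitted. Differences are written as SKOV3-labelled minus HEY-labelled, in log2 units.

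A cultured cancer line keeps part of the transcription programme of its tissue of origin, set by lineage transcription factors such as PAX8 and SOX17 in Mullerian epithelium, FOXA1 and HOXB13 in prostate epithelium and CDX2 in the intestine. The clustered HOX genes record the position along the body axis. Amplified or deleted stretches of chromosome add a further signature, because all genes within them tend to be high or silent together. SKOV3 is known for amplified ERBB2 and PC3 for lost CTNNA1.

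The labels were first set against genes that separate the lines on the 36 transfected arrays. Line-specific genes were those where even the lowest group mean of the line exceeded every group mean of the other lines by 3 log2 units or more, and a gene counted as on where an array passed the midpoint. No HEY-labelled array had any of the 45 HEY-specific genes on, whereas all 45 were on across the 3 arrays labelled untransfected PC3, and 2 were on across the SKOV3-labelled arrays. Of the 84 SKOV3-specific genes, 83.3%, 78.6% and 90.5% were on across the 3 HEY-labelled arrays, a mean of 84.1% ± 5.99 (SD, n = 3). On the SKOV3-labelled arrays the same genes were on for 29.8%, 33.3% and 28.6%, a mean of 30.6% ± 2.48 (SD, n = 3). The groups did not overlap, and the line named on the label was in neither case the line whose genes were mostly on.

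Of the 133 PC3-specific genes, 3.01%, 4.51% and 4.51% were on across the HEY-labelled arrays and 36.8%, 38.3% and 39.1% across the SKOV3-labelled ones. The reverse sets, genes that 1 transfected line lacks by the same gap, were drawn up after the data had been seen. Of 36 genes that PC3 lacks, 91.7%, 100% and 97.2% were on across the HEY-labelled arrays but 11.1%, 8.33% and 8.33% across the SKOV3-labelled ones. Among 145 genes that SKOV3 lacks, 29.7%, 31.7% and 31.7% were on across the SKOV3-labelled arrays. On the HEY-labelled arrays 5.52%, 4.14% and 4.14% of them were on. Among 57 genes that HEY lacks, 61.4%, 61.4% and 64.9% were on across the SKOV3-labelled arrays and 98.2% on each HEY-labelled one. The SKOV3-labelled arrays therefore lacked most of what PC3 lacks and most of what SKOV3 lacks. They showed less than 40% of the genes that mark either line. They are called by their label throughout, and no line is named for them.

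**Figure D1:**
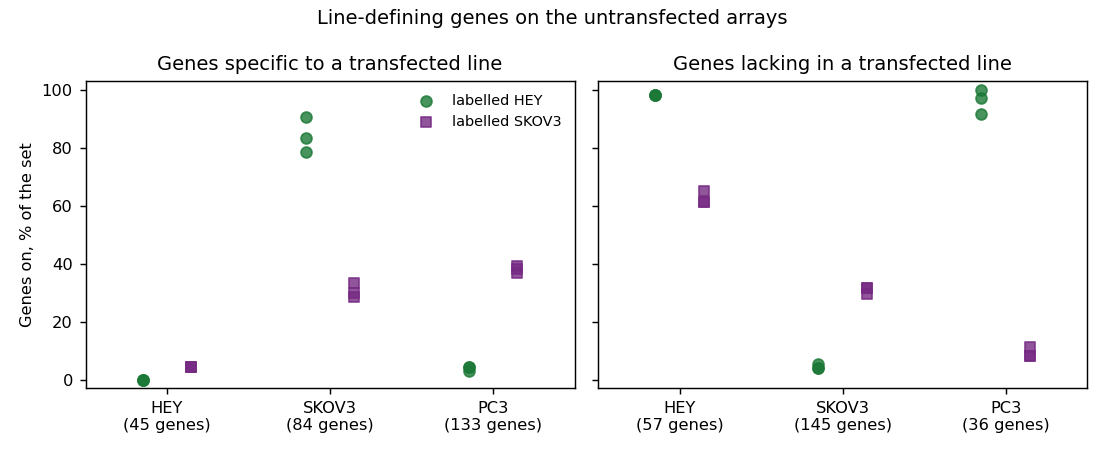
Share of line-defining genes (%) that were on in each untransfected array, with 1 point per array. Left, genes specific to a transfected line, and right, genes lacking in it, with set sizes under the axis; HEY-labelled arrays are circles and SKOV3-labelled arrays squares. The SKOV3-specific genes were on for 78.6% to 90.5% on the HEY-labelled arrays and for 28.6% to 33.3% on the SKOV3-labelled ones.

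Across all probe sets the HEY-labelled mean correlated at r = 0.951 with the SKOV3 miR-NC mean, 0.779 with HEY miR-NC and 0.733 with PC3 miR-NC. The SKOV3-labelled mean correlated at 0.880, 0.747 and 0.729. Probe sets are not independent replicates, and these values describe the arrays only. The 5′ control probe set for beta-actin read 12.96 on the HEY-labelled and 13.00 on the SKOV3-labelled arrays. With miR-NC it read 13.73 in SKOV3, 6.24 in HEY and 4.72 in PC3. The GAPDH 5′ set read 13.61 and 13.49, against 13.74, 8.37 and 5.04. Both groups shared this mark with transfected SKOV3 arrays, and its part in the correlations or the SKOV3-specific genes was not tested. Both groups carried the same technical marks. All 18 hybridisation control probe sets (bioB, bioC, bioD and cre, added to the labelled sample) lay below every other group mean in both, differing between the groups by at most 0.26, and 61 of 62 control probe sets differed by under 1. The lowest value on an array was 1.84 to 1.94 on untransfected and 1.02 to 1.55 on transfected arrays, so levels set across these sets may have been normalized apart, which was not tested.

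Between the 2 groups, 8275 of 15599 genes passed limma's test at an adjusted p under 0.05, which is 53.0% of all genes tested. Of these, 4060 (26.0%) were higher and 4215 (27.0%) lower on the SKOV3-labelled arrays. The median difference over all genes was 0.055. Of the called genes, 4031 (25.8% of those tested) differed at least 2-fold. The fit shared its estimate of spread over all 15 groups; with only the 6 arrays it called 5888. Counts for any gene list below are read against those shares.

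One HEY-labelled array stood apart from its group. On array 1, 291 genes lay at least 2 log2 units below the mean of the other 2 HEY-labelled arrays and 84 lay as far above it. The corresponding counts were 8 below and 92 above for array 2, 15 below and 26 above for array 3, and for any SKOV3-labelled array at most 1 below and 6 above. Array 1 correlated at 0.969 and 0.975 with its replicates, which correlated at 0.987 with each other, and the SKOV3-labelled pairs reached 0.987 to 0.994. Without array 1 the test called 8227 genes, of which 7612 were also called with all arrays, in the same direction. Selected results are given with and without array 1, and other list counts come from all arrays.

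**Figure D2:**
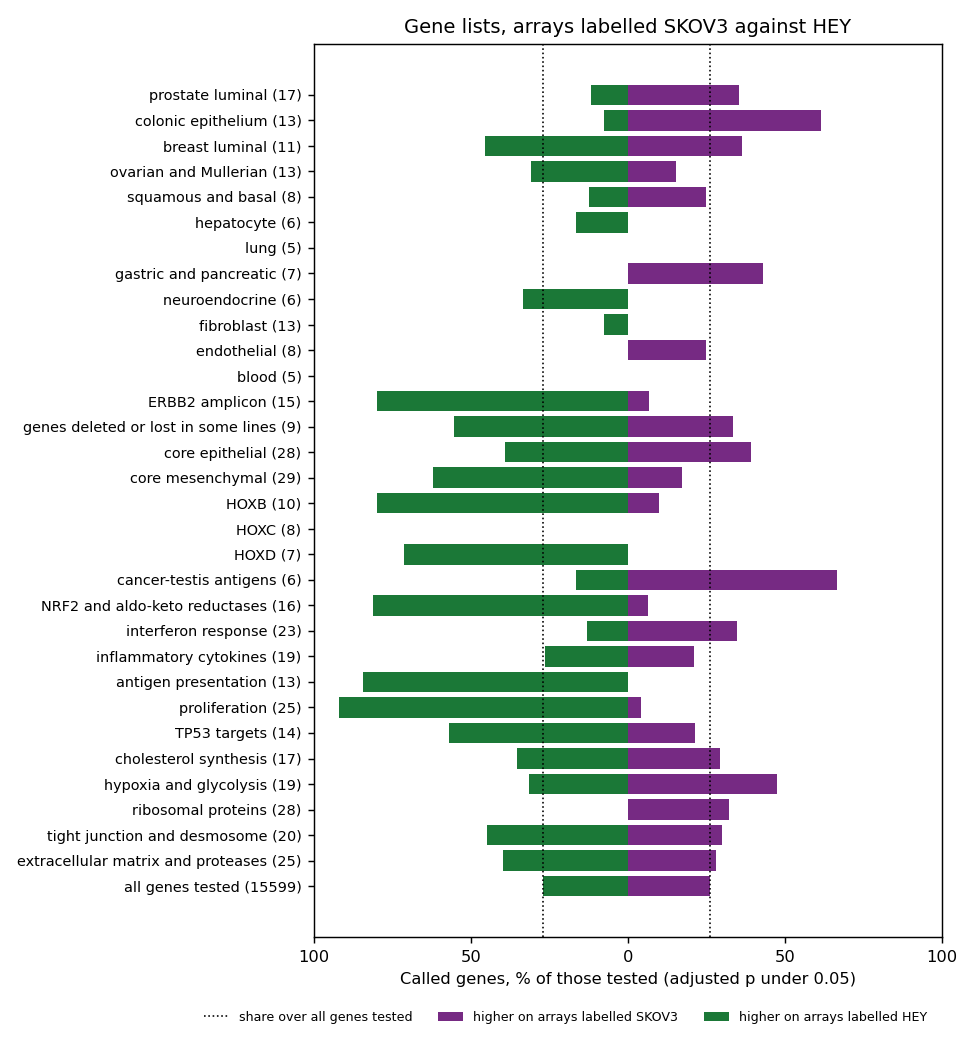
Called genes (limma, adjusted p under 0.05) as a percentage of the tested members of each gene list, higher on SKOV3-labelled arrays to the right and higher on HEY-labelled arrays to the left, with the number tested in parentheses. Dotted lines mark the shares over all genes, 26.0% and 27.0%; the proliferation, antigen presentation, NRF2 and aldo-keto reductase, ERBB2 amplicon and HOXB lists reach farthest left.

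RNA of ERBB2 and of most of its tested neighbours was higher on the HEY-labelled arrays; copy number was not measured. ERBB2, a receptor tyrosine kinase of the EGF receptor family, read 11.93, 12.29 and 12.70 on them and 7.17, 7.90 and 7.73 on the SKOV3-labelled arrays. The groups did not overlap, and ERBB2 was 26.1-fold higher on the HEY-labelled arrays (difference -4.71 ± 0.16 SE, limma adjusted p = 1.98e-24). Its level with miR-NC was 11.34 in SKOV3, 6.83 in HEY and 6.37 in PC3. The neighbouring PGAP3, which remodels GPI anchors, read 10.24, 9.74 and 9.82 against 6.08, 6.39 and 6.48, and STARD3, a cholesterol transfer protein, differed by -2.50 ± 0.18. GRB7, an adaptor that binds ERBB2, read 8.14, 8.57 and 10.01 against 6.83, 6.92 and 6.79, 4.17-fold higher on the HEY-labelled arrays. In SKOV3 with miR-NC, PGAP3 and STARD3 read 9.54 and 10.32, but GRB7 read 5.90, below all 6 arrays. Of 15 amplicon genes tested, 12 were lower and 1, MIEN1, higher on the SKOV3-labelled arrays, with a median of -1.35 against 0.055 over all genes. The share called was 86.7%, against 53.0% over all genes. MIEN1 lies beside ERBB2 and differed by 0.90 ± 0.22, with an adjusted p of 0.15 when only the 6 arrays were fitted. Its mean was 8.98 on the HEY-labelled and 9.88 on the SKOV3-labelled arrays, against 11.77 in SKOV3 with miR-NC. In bulk RNA, fewer cells with a transcript and less of it per cell cannot be told apart.

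Of 13 ovarian and Mullerian genes tested, 4 were lower and 2 higher on the SKOV3-labelled arrays, a share of 46.2% against 53.0% over all genes. SOX17, a factor of female tract epithelium, read 8.45, 8.34 and 8.09 on the HEY-labelled arrays and 3.49, 3.56 and 3.32 on the SKOV3-labelled ones (difference -4.84 ± 0.17); group means below 4.89, the median of all values, were taken as dim, and no fold is given against them. PAX8, the factor used to identify ovarian carcinoma, was 10.55, 10.19 and 10.80 against 8.40, 8.60 and 8.28 (difference -2.09 ± 0.14), with 8 probe sets ranging from -5.39 to -1.26. PAX8 with miR-NC was 6.00 in PC3, below all 6 arrays. MECOM, a zinc finger regulator, read 11.64, 11.81 and 11.71 against 7.27, 7.44 and 7.69. The folate receptor gene FOLR1 was high in both, at 10.74 ± 0.48 and 10.51 ± 0.47 (SD, n = 3), and its difference of -0.23 ± 0.31 did not pass the test, while its other probe set gave -4.32. WT1, a serous carcinoma marker, went the other way, at 4.42, 4.19 and 4.72 against 5.90, 5.99 and 5.99 (difference 1.52 ± 0.13), and was 10.31 in HEY with miR-NC.

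**Figure D3:**
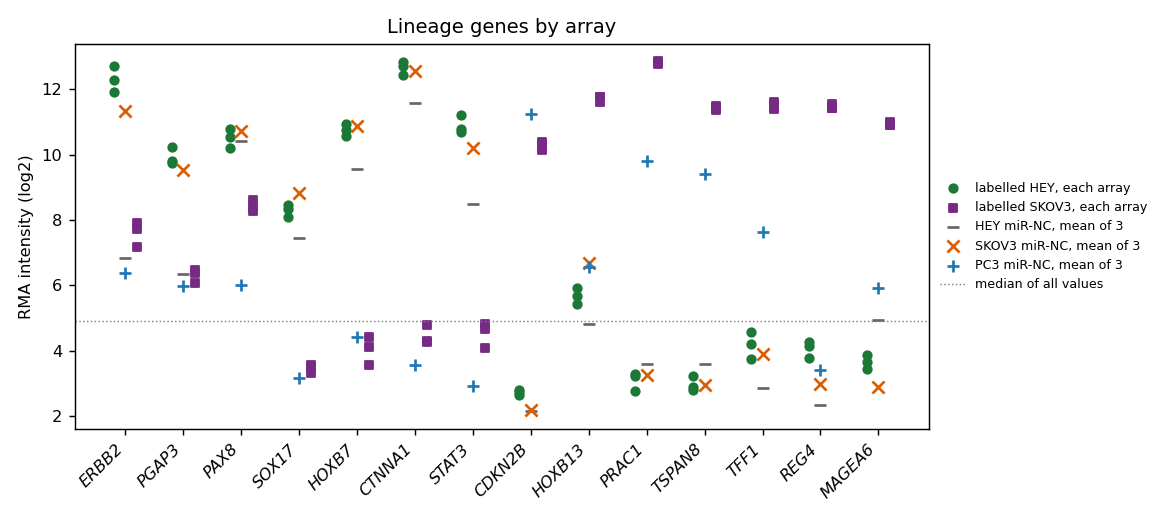
RMA intensity (log2) of 14 lineage and locus genes on each HEY-labelled array (circles) and each SKOV3-labelled array (squares), with the mean of the 3 miR-NC arrays of each line; the dotted line is the median of all values, 4.89. ERBB2 to STAT3 are high on the HEY-labelled arrays and CDKN2B to MAGEA6 on the SKOV3-labelled arrays, with no overlap in any of the 14.

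The HOXB cluster divided between HOXB9 and HOXB13. HOXB6 read 10.80, 10.43 and 10.67 on the HEY-labelled arrays and 3.82, 3.61 and 3.75 on the SKOV3-labelled ones (difference -6.91 ± 0.10). HOXB7 and HOXB3 differed by -6.73 ± 0.20 and -6.88 ± 0.14. Every gene from HOXB2 to HOXB9 was lower on the SKOV3-labelled arrays, while HOXB1 did not pass the test. HOXB13, the most 5′ member and a marker of prostate and hindgut, went the other way, at 5.91, 5.68 and 5.44 against 11.62, 11.78 and 11.78, a 66.3-fold difference. Its neighbour PRAC1, a small nuclear protein of prostate and distal colon, showed the largest rise of all genes named here, from 3.22, 2.77 and 3.27 to 12.86, 12.80 and 12.79 (difference 9.73 ± 0.18, limma adjusted p = 2.3e-32). PRAC1 with miR-NC was 9.82 in PC3, 3.25 in SKOV3 and 3.6 in HEY, and HOXB13 with miR-NC was 6.56 in PC3. In the HOXD cluster 5 of 7 tested genes were lower, HOXD8 by -3.36 ± 0.18, and in the HOXC cluster none of 8 was called. The HOXD share called was 71.4%, against 53.0% over all genes.

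The colonic list held 24 genes, of which 13 had a group mean above 4.89 and were tested. Of these, 8 were higher and 1 (AXIN2) lower on the SKOV3-labelled arrays, 69.2% called against 53.0% over all genes, and the median was 0.49. Only 4 of the 13 exceeded 7 on all SKOV3-labelled arrays. TSPAN8, a tetraspanin of gut epithelium, read 2.88, 2.78 and 3.23 on the HEY-labelled arrays and 11.38, 11.43 and 11.49 on the SKOV3-labelled ones (difference 8.47 ± 0.19). It is also among the PC3-specific genes, with a gap of 4.58 on the transfected arrays. LGR5, the receptor that marks intestinal stem cells, read 2.67, 3.22 and 2.92 against 9.36, 9.35 and 9.62. Keratin 20, a colonic and urothelial keratin (KRT20), was 3.54 ± 0.05 against 7.59 ± 0.14 (SD, n = 3). It was tested only because of its level in the SKOV3-labelled group, which fixed its direction, and its highest transfected group mean was 3.43. The intestinal master factor CDX2 did not pass the test: it read 5.54, 4.91 and 5.27 against 5.06, 5.30 and 5.06, and the groups overlapped.

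All 3 trefoil factor genes, which encode small mucosal repair peptides, were higher on the SKOV3-labelled arrays. TFF1 read 4.58, 3.76 and 4.19 against 11.50, 11.62 and 11.39 (difference 7.33 ± 0.22), TFF2 differed by 6.26 ± 0.23 and TFF3 by 4.54 ± 0.17. AGR2, a disulfide isomerase of secretory cells, read 5.76, 6.37 and 5.76 against 12.83, 12.82 and 12.77. TFF1 and AGR2 are also among the PC3-specific genes, with gaps of 3.74 and 6.57 on the transfected arrays. REG4, a lectin of enteroendocrine and goblet cells, was 4.15, 3.78 and 4.26 against 11.44, 11.54 and 11.43 (difference 7.41 ± 0.24). ANXA10, an annexin of gastric mucosa, read 4.31, 5.83 and 5.58 against 10.77, 10.81 and 10.70. Within the gastric and pancreatic list 3 of 7 tested genes were higher and none lower, or 42.9% called against 53.0% over all genes. MUC5AC, PDX1 and PGC, defining members of that list, did not pass the test.

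Prostate luminal genes were called in 8 of 17 cases, near the share over all genes. FOXA1, a pioneer factor, read 4.17, 3.99 and 3.74 against 8.63, 8.59 and 8.55, and STEAP1, a surface metalloreductase, 6.03, 5.59 and 5.02 against 9.08, 9.14 and 9.0. With HOXB13 they lead 6 higher members of 17 tested, with 2 lower, or 47.1% called, and the median was 0.29. The secreted kallikrein gene KLK3, which encodes prostate-specific antigen, read 7.43, 7.18 and 7.19 against 7.71, 7.51 and 7.24, and these ranges overlapped (adjusted p = 0.417). Breast luminal genes split, with 4 of 11 higher and 5 lower, or 81.8% called against 53.0% over all genes. ESR1, the oestrogen receptor gene, read 10.78, 10.14 and 10.13 on the HEY-labelled arrays and 3.37, 3.48 and 3.44 on the SKOV3-labelled ones, although its 5 probe sets ranged from -6.92 to -0.40. GATA3, a luminal breast and urothelial factor, was 4.0 ± 0.17 and 4.37 ± 0.03 and was not called.

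Several loci known to be lost in particular lines separated the groups. CTNNA1, which encodes the alpha-catenin that ties cadherins to actin, read 12.44, 12.72 and 12.84 on the HEY-labelled arrays and 4.26, 4.78 and 4.30 on the SKOV3-labelled ones (difference -8.22 ± 0.20). With miR-NC it was 12.57 in SKOV3, 11.59 in HEY and 3.57 in PC3. Its 5 probe sets all fell, by -8.22 to -0.13. STAT3, a cytokine-activated transcription factor chosen after its values were seen, read 10.71, 10.79 and 11.22 against 4.80, 4.67 and 4.07, and 2.91 in PC3 with miR-NC. Beside it on chromosome 17, STAT5B differed by -3.35 ± 0.23 and the caveolae gene CAVIN1 by -4.31 ± 0.15, and 13 of the 21 tested genes centred on STAT3 were lower with 2 higher. Over all genes tested, 27.0% were lower and 26.0% higher.

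The locus of the cyclin-dependent kinase inhibitors went the other way. CDKN2B read 2.63, 2.74 and 2.79 on the HEY-labelled arrays and 10.27, 10.15 and 10.38 on the SKOV3-labelled ones, and 11.26 in PC3, 2.18 in SKOV3 and 2.14 in HEY with miR-NC. CDKN2A read 6.26, 5.53 and 5.84 against 11.81, 11.86 and 11.70, above its PC3 miR-NC level of 8.49. MTAP, a methionine salvage enzyme that is often deleted with them, differed by 2.34 ± 0.22, though its 5 probe sets ranged from 0.11 to 2.34. Of the 21 tested genes centred on CDKN2A on chromosome 9, 9 were higher and 3 lower. Around ERBB2 on chromosome 17, 14 of 21 were lower and 1 higher. Around CTNNA1 on chromosome 5, 9 of 21 were lower and 1 higher, a share called below the 53.0% over all genes. These counts include the central gene, and over all genes 26.0% were higher and 27.0% lower.

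**Figure D4:**
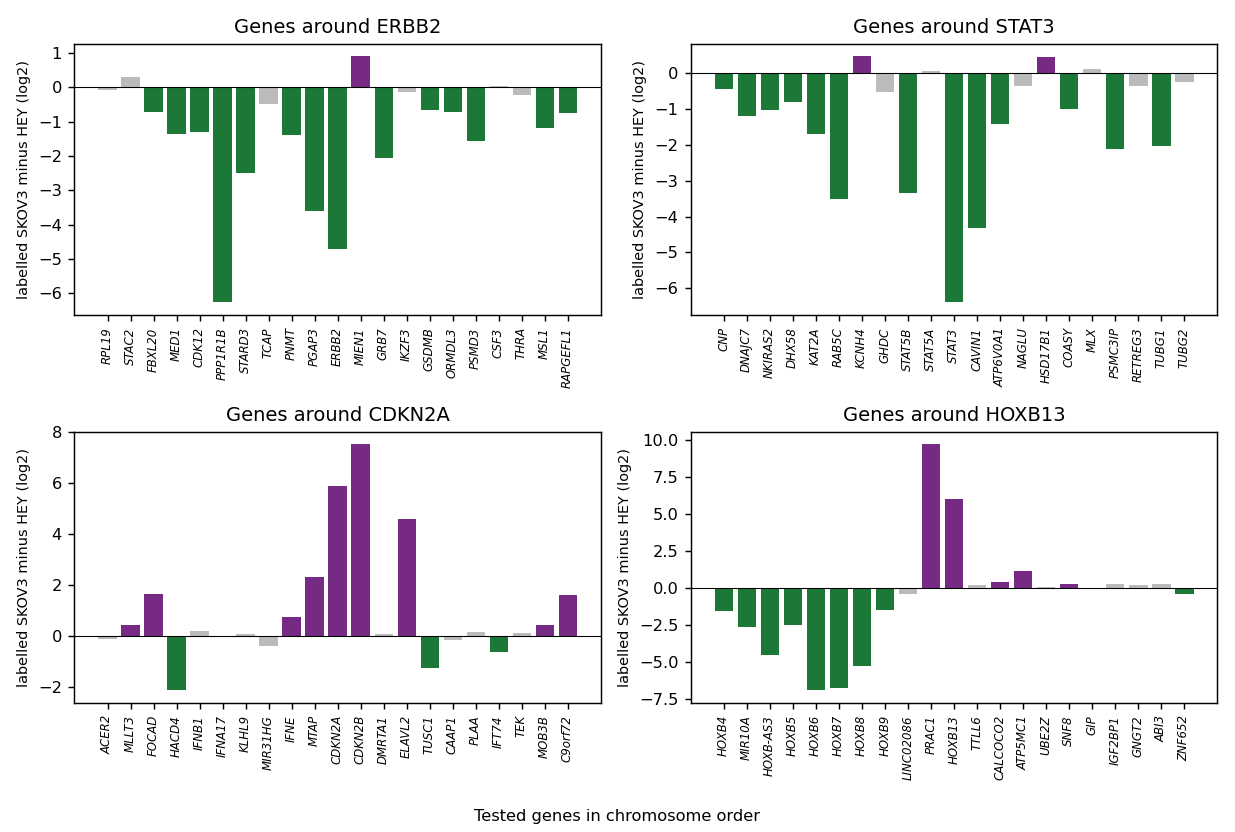
Difference between groups (SKOV3-labelled minus HEY-labelled, log2) for the 21 tested genes centred on ERBB2, STAT3, CDKN2A and HOXB13, in RefSeq chromosome order. Purple bars were called higher, green bars called lower and grey bars not called (limma, adjusted p under 0.05); each panel has its own scale, and the HOXB genes fall as PRAC1 and HOXB13 rise.

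Beyond the loci, the 10 genes lowest on the SKOV3-labelled arrays by the naming rule were SPP1, CALB1, ZIC2, CTNNA1, TCIM, NNMT, TMEM47, KAZN, GDA and PTGIS. SPP1, which encodes the matrix phosphoprotein osteopontin, read 13.18, 12.99 and 12.83 against 3.06, 3.55 and 3.01 (difference -9.79 ± 0.17). ZIC2, a zinc finger developmental factor, read 11.95, 11.44 and 11.77 against 3.07, 3.55 and 3.53. PTGIS, prostacyclin synthase, led the SKOV3-specific genes by its gap on transfected arrays and read 10.92, 11.30 and 11.35 against 3.82, 3.86 and 3.59. The next of these, DHRS2 and HKDC1, were also high on the HEY-labelled arrays, at 11.55 ± 0.65 and 10.83 ± 1.17. The receptor tyrosine kinase gene KIT was an exception, at 4.94, 6.52 and 6.17 on the HEY-labelled arrays against 10.11 in SKOV3 with miR-NC. ARMCX1 and TRIM55, which lead the HEY-specific genes, read 2.33 ± 0.11 and 2.63 ± 0.22 on the HEY-labelled arrays, against 11.18 and 9.76 in HEY with miR-NC.

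The highest 10 on the SKOV3-labelled arrays were PRAC1, PKIB, ABI3BP, TSPAN8, TCN1, HSD17B2, CDKN2B, HAPLN1, REG4 and TFF1. PKIB, an inhibitor of protein kinase A, read 3.30, 3.18 and 3.28 against 12.32, 12.08 and 11.97. TCN1, the secreted vitamin B12 binder haptocorrin, read 3.53, 4.03 and 4.67 against 12.10, 12.30 and 12.13. HSD17B2, which oxidises oestradiol and testosterone, was 3.46 ± 0.31 against 11.04 ± 0.18. NEFL, a neurofilament subunit, and ELAVL2, a neuronal RNA-binding protein, follow CDKN2B among the PC3-specific genes and differed by 6.86 ± 0.15 and 4.62 ± 0.13. HAPLN1, a link protein of hyaluronan matrix, differed by 7.53 ± 0.23.

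On all 3 SKOV3-labelled arrays, 65 genes lay at least 2 log2 units above the highest of the 12 transfected group means, whether or not a transfected line expressed them. On the HEY-labelled arrays 10 genes did, 5 of them shared with the SKOV3-labelled group. REG4 led, followed by the cancer-testis antigen gene MAGEA12, which read 3.31, 3.71 and 4.07 against 10.12, 10.23 and 10.02. UTS2B, a urotensin-like peptide gene, was 3.02 ± 0.12 against 9.40 ± 0.22, and NELL2, a secreted glycoprotein gene, 4.87 ± 0.35 against 11.44 ± 0.19. MAGEA6 and MAGEA1 differed by 7.31 ± 0.30 and 4.64 ± 0.21; probe sets of this near-identical family can share transcripts, so the members cannot be told apart with certainty. On the HEY-labelled arrays SLC22A2, an organic cation transporter of kidney, led at 8.15, 8.69 and 8.52 against 4.45, 4.40 and 4.21, and FOS, an immediate early factor, read 10.45, 10.31 and 10.61 against 4.30, 4.69 and 4.45. REG4, MAGEA12, UTS2B and MAGEA1 passed the filter only through the SKOV3-labelled group and SLC22A2 only through the HEY-labelled one, which fixed their directions. The counts of 65 and 10 genes cross the possible difference in normalization between untransfected and transfected arrays, and quantile normalization gave 128 and 26.

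Epithelial genes split evenly, with 11 of 28 higher and 11 lower, or 78.6% called against 53.0% over all genes. Without array 1 the count was 11 higher and 9 lower. CLDN4, a tight junction claudin, read 6.29, 6.04 and 6.19 against 11.15, 11.27 and 11.25. EPCAM, an epithelial adhesion molecule, read 11.41, 10.42 and 9.68 against 11.75, 11.72 and 11.54; its difference of 1.17 ± 0.26 had an adjusted p of 0.0569 with only the 6 arrays. CDH1, which encodes E-cadherin, differed between array 1 and its replicates: it read 10.49, 7.32 and 6.54 on the HEY-labelled arrays and 10.02, 9.98 and 10.39 on the SKOV3-labelled ones. The ranges overlapped, and the difference was 2.01 ± 0.46 with array 1 and 3.20 without it. With only the 6 arrays the adjusted p for CDH1 was 0.132. DSP, the desmosomal plaque protein, was lower on the SKOV3-labelled arrays by -3.18 ± 0.12. Keratin 7 (KRT7) read 9.28, 9.49 and 10.13 against 3.78, 4.40 and 4.58, but turned to 0.11 with another probe set.

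Mesenchymal genes were mostly lower on the SKOV3-labelled arrays. Of 29 tested, 18 were lower and 5 higher, with a median of -1.46, and without array 1 the count was 22 lower and 5 higher. With all arrays the share called was 79.3% against 53.0% over all genes. TGFBI, a matrix protein induced by TGF-beta, read 6.95, 11.63 and 12.17 against 5.50, 5.60 and 5.52. Array 1 was far below its replicates there, and the difference moved from -4.71 to -6.36 without it. TPM2, a tropomyosin, read 9.83, 10.40 and 10.98 against 5.50, 5.88 and 6.37. ZEB1, a repressor of E-cadherin, read 9.42, 10.00 and 9.98 against 7.01, 6.75 and 7.33 (difference -2.77 ± 0.13). CDH11, a mesenchymal cadherin that is among the PC3-specific genes, moved oppositely, at 3.33, 3.0 and 3.12 against 10.14, 10.06 and 9.99. Vimentin (VIM) was high in both, at 13.62 ± 0.25 and 13.15 ± 0.03, and its difference of -0.47 ± 0.14 had an adjusted p of 0.0645 with only the 6 arrays.

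Matrix and junction genes also changed in both directions. In the matrix and protease list 10 of 25 were lower and 7 higher, and in the tight junction and desmosome list 9 of 20 were lower and 6 higher. COL12A1, a fibril-associated collagen, read 11.01, 12.26 and 12.51 against 4.85, 5.60 and 5.31. TNC and COL5A2, a matricellular protein and a fibrillar collagen chain, were higher on the SKOV3-labelled arrays, by 4.47 ± 0.15 and 4.54 ± 0.34. PKP1, a desmosomal plakophilin, read 5.29, 5.25 and 4.86 against 9.44, 10.13 and 10.26. In the squamous and basal list 2 of 8 tested genes were higher and 1 lower, or 37.5% called against 53.0% over all genes. DSC3 and SERPINB5 were higher, by 5.61 ± 0.21 and 5.41 ± 0.25, while the basal keratin KRT5 was lower by -2.26 ± 0.26. DSC3 is also among the PC3-specific genes, with a gap of 3.97 on the transfected arrays.

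Detoxification and antigen presentation genes were higher on the HEY-labelled arrays. AKR1C3, an aldo-keto reductase of steroid metabolism, read 13.43, 13.25 and 13.04 against 6.03, 6.03 and 6.36, 138-fold apart. Its paralogs AKR1C1 and AKR1C2 differed by -5.24 ± 0.15 and -5.29 ± 0.15, read by probe sets that may detect more than 1 member of the family. Of 16 genes of the NRF2 and aldo-keto reductase list, 13 were lower and 1 higher on the SKOV3-labelled arrays, with a median of -1.64. The share called was 87.5% against 53.0% over all genes. PSMB9, an immunoproteasome subunit, read 8.39, 9.51 and 9.60 against 5.0, 5.07 and 5.24, and HLA-B, a class I heavy chain, 13.37, 12.13 and 12.60 against 9.95, 10.02 and 9.99. In the antigen presentation list 11 of 13 were lower and none higher, or 84.6% called. The interferon response list did not follow it, with 8 of 23 higher, 3 lower and 47.8% called. Its 3 lower members were HERC5, BST2 and IFI27, at -5.13, -4.22 and -3.98. Cytokine genes were called in both directions, 4 higher and 5 lower of 19, a share of 47.4% below that over all genes. The chemokine gene CXCL1 read 9.80, 9.54 and 9.86 against 4.62, 4.37 and 5.45.

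Proliferation genes set array 1 of the HEY-labelled group against the other two. The mean level of the 25 genes was 6.77 on array 1 and 9.78 and 9.84 on arrays 2 and 3, and 6.57, 6.82 and 6.85 on the SKOV3-labelled arrays. With miR-NC it was 10.4 in HEY, 10.5 in SKOV3 and 9.59 in PC3. All 25 genes lay at least 1 log2 unit lower on array 1 than on the mean of arrays 2 and 3. MKI67, the Ki-67 antigen gene, read 6.59, 9.88 and 10.15 against 5.33, 5.19 and 5.03. RRM2, a ribonucleotide reductase subunit, read 6.01, 11.56 and 11.52 against 5.47, 5.82 and 5.31, and its difference moved from -4.16 to -6.01 without array 1. With only the 6 arrays the limma adjusted p for RRM2 was 0.0517. With all arrays 23 of 25 genes were lower and 1 (MCM7) higher, with a median of -1.73. The share called was 96.0%, against 53.0% over all genes. Without array 1 the count was 24 lower and none higher, with a median of -2.80. MCM7, a subunit of the replicative helicase, read 6.69, 8.98 and 9.43 against 9.27, 9.55 and 9.69 and was no longer called without array 1 (adjusted p = 0.15).

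**Figure D5:**
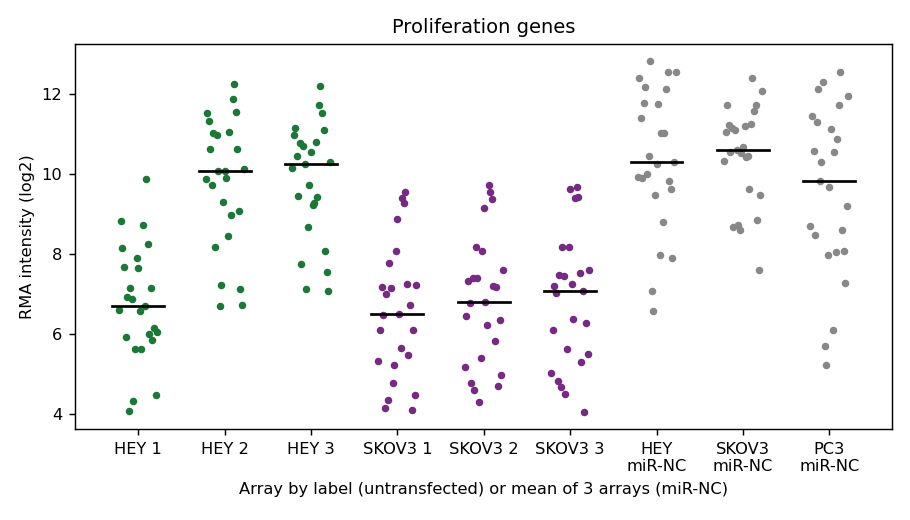
RMA intensity (log2) of the 25 proliferation genes, 1 point per gene, on each untransfected array by its label and as the mean of 3 miR-NC arrays for each line; horizontal lines are medians. HEY-labelled array 1 sits with the SKOV3-labelled arrays, and arrays 2 and 3 with the miR-NC means.

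Promoters of these genes are shown because the members moved together and late cell cycle genes are known to share 2 elements, the CHR and the CCAAT box. Of the 25 genes, 20 had a window of 250 bases before to 50 after the start in the RefSeq table (GRCh38.p14). The CHR letters TTTGAA, searched on both strands, occurred in 7 of 20 (35.0%) against 15.4% of all 27305 windows. CCAAT, on both strands, occurred in 17 of 20 (85.0%) against 35.7%, and both in 6 of 20 (30%) against 6.08%. The last 120 bases before the start of 4 genes follow, 5′ to 3′ on the gene's strand, with both elements in either orientation in capitals; in MKI67 a pair of them overlaps. A match is a description and not a tested site. MKI67 lies at chr10:128126424-128126543 (minus strand), CCNB2 at chr15:59105026-59105145 (plus), CDC20 at chr1:43358861-43358980 (plus) and PLK1 at chr16:23678769-23678888 (plus).
MKI67: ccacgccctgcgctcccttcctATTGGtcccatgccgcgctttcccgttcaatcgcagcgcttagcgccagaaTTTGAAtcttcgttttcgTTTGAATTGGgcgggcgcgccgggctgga
CCNB2: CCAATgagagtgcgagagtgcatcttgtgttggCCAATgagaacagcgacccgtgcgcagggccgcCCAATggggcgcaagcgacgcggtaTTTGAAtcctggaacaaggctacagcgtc
CDC20: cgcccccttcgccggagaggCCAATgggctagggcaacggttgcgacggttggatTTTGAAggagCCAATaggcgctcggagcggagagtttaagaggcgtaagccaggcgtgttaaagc
PLK1: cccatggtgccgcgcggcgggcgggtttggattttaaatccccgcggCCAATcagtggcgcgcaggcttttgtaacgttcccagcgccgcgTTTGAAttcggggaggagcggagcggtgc

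The 4 genes, chosen after their values were seen, all read lower on array 1 than on its replicates. CCNB2, a mitotic cyclin, read 7.69, 10.64 and 10.45 against 6.47, 6.77 and 7.02. CDC20, an activator of the anaphase-promoting complex, read 7.15, 10.64 and 11.11 against 6.73, 7.17 and 7.09, where array 1 fell within the range of the SKOV3-labelled arrays. PLK1, a mitotic kinase, read 5.61, 7.23 and 8.66 against 5.24, 5.39 and 5.62, and here too array 1 overlapped the other group.

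Hypoxia and glycolysis genes were higher in 9 of 19 and lower in 6, cholesterol synthesis genes higher in 5 of 17 and lower in 6, and p53 target genes higher in 3 of 14 and lower in 8. Ribosomal protein genes were higher in 9 of 28 and lower in none, a share of 32.1% below that over all genes. Among markers of other cell types, none of 5 blood, 5 lung and 3 pluripotent and germ cell genes passed the test. Lower on the SKOV3-labelled arrays were 1 of 6 hepatocyte, 2 of 3 kidney and 2 of 6 neuroendocrine genes, the last falling to 1 without array 1. Of 13 fibroblast genes 1 was lower with array 1 and 6 without it. Higher were 2 of 8 endothelial genes (ESAM and KDR) and 1 of 3 melanocyte genes, and 1 of 4 urothelial genes was higher with 1 lower. The share over all genes was 53.0%.

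Each group was also set against the miR-NC arrays of the 3 lines, comparisons that share the untransfected arrays and cross the difference in array minimum. Those with HEY and PC3 also cross the difference in 5′ control levels. HEY-labelled arrays differed from SKOV3 miR-NC in 9594 genes (61.5% of those tested, with 3315 or 21.3% higher and 6279 or 40.3% lower), from HEY miR-NC in 13002 (83.4%) and from PC3 miR-NC in 13221 (84.8%). SKOV3-labelled arrays differed from SKOV3 miR-NC in 11345 genes (72.7%, with 4806 or 30.8% higher and 6539 or 41.9% lower), from HEY miR-NC in 13143 (84.3%) and from PC3 miR-NC in 13307 (85.3%). Quantile normalization turned the split against SKOV3 miR-NC to 4626 higher and 4728 lower for the HEY-labelled and to 6102 higher and 5424 lower for the SKOV3-labelled arrays. The most raised genes on HEY-labelled arrays against SKOV3 miR-NC were NPNT, ERBB4 and SHISA3. ERBB4, a receptor that pairs with ERBB2, read 7.42, 8.79 and 8.94 there against 3.09. The most lowered were ID3, UCA1 and INHBA, and INHBA, an activin subunit gene, read 2.75, 2.62 and 2.46 against 8.63. SKOV3-labelled arrays stood above PC3 miR-NC most for UCHL1, MIF and REG4 and below it most for INHBA, CALB1 and LXN; UCHL1, a neuronal ubiquitin hydrolase, read 12.28, 12.42 and 12.26 against 2.97.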

How the data were processed

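The authors deposited RMA-summarised log2 intensities, per the submitters' processing notes (version not given in the sources used here). The platform annotation gave 1 symbol for 41097 of 54675 probe sets, and the others were left out. Probe sets with a highest group mean above 4.89, the median of all values, were kept and the brightest represented its gene, giving 15599 genes. Genes kept only through their level in the SKOV3-labelled group, such as KRT20, REG4, MAGEA12, MAGEA1 and UTS2B, could only read higher there. Likewise SLC22A2, kept only through the HEY-labelled group, could only read higher on the HEY-labelled arrays. All 45 arrays entered 1 fit of 15 group means in limma 3.58.1 (R 4.3.3; 30 residual and 5.24 prior degrees of freedom), two-sided, with Benjamini-Hochberg adjustment and a threshold of 0.05. All adjusted p-values come from limma. On simulated data the fit called 92% of changes of 1 and 100% of 2 log2 units. The simulation gave every array the same normal noise for a gene and changed 100 genes by each size. It held no deviant array such as HEY-labelled array 1, so these rates may not hold for these groups. The number of arrays limits the precision. Members and lists were chosen with earlier results of these data known. Named genes were the 10 highest and lowest non-overlapping, up to 3 per list, a fixed set of lineage genes, 4 per line-specific set, 10 by the largest gap above the transfected group means and 3 each way per miR-NC comparison; others were chosen after their values were seen. Promoters were taken from RefSeq.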

Additional observations from a re-analysis of the deposited data

How the results depend on the processing

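Requiring a 2-fold change left 4031 calls between the groups. Leaving out 1 array gave 7751 to 8227 calls. Replicate numbers did not pair the arrays (correlations of deviations 0.071, -0.051 and 0.11), and a replicate block gave 8279 calls and changed no named call. With a gap of 2 log2 units, HEY-specific genes were on for 0.41% (HEY-labelled) and 4.47% (SKOV3-labelled), SKOV3-specific for 76.4% and 37.1%, and PC3-specific for 3.13% and 32.9%. With a gap of 4, SKOV3-specific genes were on for 91.4% and 17.3%, PC3-specific for 3.12% and 47.9%, and HEY-specific for 9.52% (SKOV3-labelled). After quantile normalization the SKOV3-labelled shares were 7.89%, 37.0% and 42.3% for HEY, SKOV3 and PC3 genes, and PC3 genes were on for 2.24% on HEY-labelled arrays. Genes above every transfected group mean numbered 2 and 27 with a gap of 3, and 26 and 128 after quantile normalization (HEY-labelled, SKOV3-labelled). The breast luminal median turned from -0.40 to 0.012 with the mean of probe sets, and leaving out 1 array gave -0.67 to 0.086, the latter without HEY-labelled array 1. Without shared-sequence probe sets, AMBP turned to 0.19, KRT7 to 0.11 and FAS to 0.26. The 148 named genes include some that were not called with all arrays, such as KLK3, CDX2 and GATA3. Among those called, 10 lost their call with only the 6 arrays. The causes were not tested, and 3 arrays per group and dim signal limit small differences.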

Other observations

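Genes that set HEY-labelled array 1 apart from arrays 2 and 3 were looked at after the data had been seen. S100P, a calcium-binding protein, read 11.92, 5.70 and 5.30 on the HEY-labelled arrays, and 11.35, 11.48 and 11.45 on the SKOV3-labelled ones. DEFB1, a beta-defensin, read 10.50, 4.76 and 4.59 against 4.62, 4.37 and 4.79. IL1A, an inflammatory cytokine, read 10.31, 5.17 and 4.62, and INHBE, a stress-induced inhibin subunit, 10.10, 5.34 and 4.85. The stanniocalcin gene STC2 read 9.52, 5.37 and 4.86, and ESRP1, an epithelial splicing factor, 8.75, 5.10 and 4.89. In the other direction, ANLN, an actin-binding protein of the cleavage furrow, read 4.62, 10.85 and 10.37, and COL8A1, a network-forming collagen, 3.05, 9.25 and 8.74. Array 1 had 83.3% of SKOV3-specific genes on, between the 78.6% and 90.5% of its replicates. MYC, a growth-promoting factor, was separate from these: it read 10.05, 10.21 and 10.62 on the HEY-labelled arrays and 13.50, 13.63 and 13.40 on the SKOV3-labelled ones, 9.31-fold higher.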
